A study of Homo sapiens with 12 samples.

Results

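Genes of the Wnt and beta-catenin pathway were followed across all 12 RNA libraries of a study of ribosomal RNA (rRNA) depletion in HCT116, a human colon carcinoma cell line. The 10 genes, taken by name from a table of 57134 genes, were CTNNB1, APC, AXIN1, AXIN2, GSK3B, TCF7L2, TCF7, RNF43, ASCL2 and MYC, and 9 of them had a count in at least 1 library. The design set libraries treated with scDASH, in which Cas9 cuts DNA made from rRNA, against libraries left untreated. Every library came from total RNA of the same line and was made with MATQ-seq, a random-primed amplification protocol that also captures RNA without a poly(A) tail. The 4 groups were 4 DASHed single cells, 4 untreated single cells, 2 DASHed mini-bulk libraries and 2 untreated mini-bulk libraries. The single cells were sorted by FACS, and the labels name no age, further treatment or separate culture for any group.

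In Wnt signalling, a cytoplasmic destruction complex built on the scaffolds APC and AXIN, with the kinases GSK3 and CK1, marks beta-catenin for degradation. Wnt ligands bound to Frizzled and LRP receptors switch that complex off, and beta-catenin then enters the nucleus and activates target genes through TCF and LEF factors. In the intestine the pathway maintains crypt stem cells, and most colorectal cancers carry a mutation that keeps it active. HCT116 carries such a mutation in CTNNB1 itself, the gene of beta-catenin, at a residue that CK1 phosphorylates, while its APC is of full length. A gene count does not tell mutant from normal transcripts, so no value here refers to 1 allele.

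Total estimated counts were 837614 and 1087711 in DASHed mini-bulk, 5803180 and 6026584 in untreated mini-bulk, 1018874 to 1573651 in DASHed cells and 5545355 to 6008358 in untreated cells. After 547 rRNA genes and pseudogenes and 4 lincRNA genes that lie inside 18S were set aside, 57.3 to 70.1% of the counts remained in DASHed libraries and 14.2 to 27.1% in untreated ones. Levels below are therefore given as CPM without rRNA genes, that is, counts scaled to the same total of remaining counts in every library. All 6 epithelial markers had counts in every group, summing to 1123 to 6042 of these CPM per library, whereas 4 leukocyte markers summed to at most 6.91, 4 fibroblast markers to at most 51.6 and 3 endothelial markers to at most 9.998. CD3E and CD14 of the leukocyte, LUM of the fibroblast and VWF of the endothelial markers were at 0 in every library. A DASHed and an untreated cell that carry the same number resembled each other closely, with correlations of 0.926 to 0.934 between their deviations from the group means over 7338 genes. What the numbers stand for is not in the labels, so same-numbered libraries may hold the same cell, and the 8 single-cell libraries are not 8 independent cells.

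**Figure D1:**
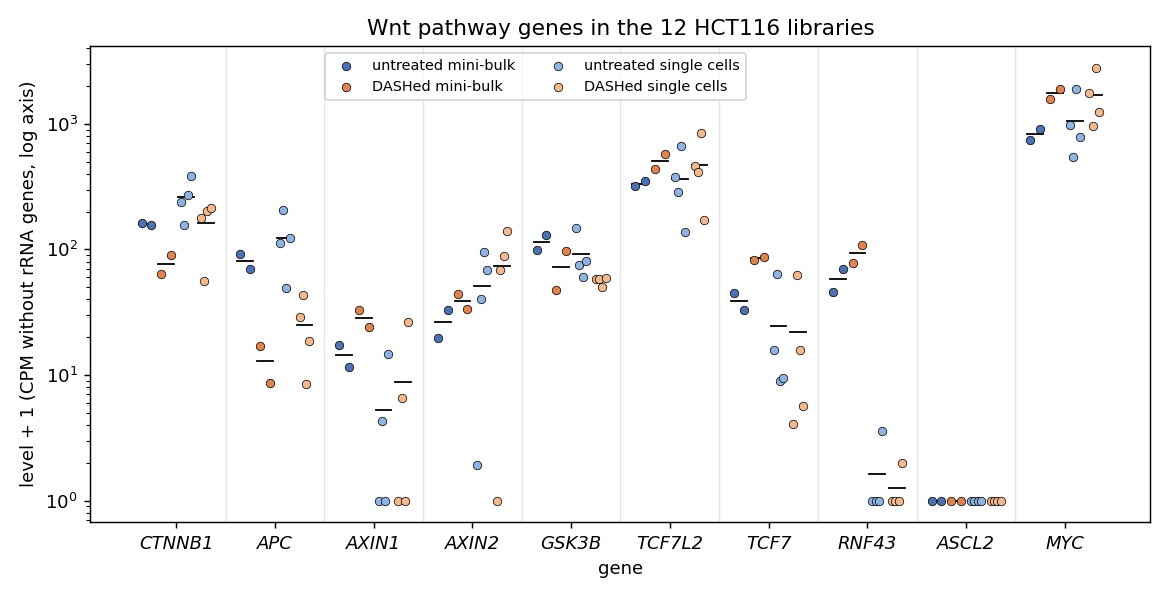
Level of each gene in every library, as CPM without rRNA genes plus 1 on a log axis. Each point is 1 library and each bar the group mean. MYC and TCF7L2 lie highest in all 4 groups, ASCL2 is at 0 in all 12 libraries, and RNF43 is near 0 in the cells and between 45 and 107.9 CPM in mini-bulk.

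MYC, the proto-oncogene transcription factor that beta-catenin and TCF induce in colon cancer cells, was the most abundant of the 10 transcripts for its length. In untreated mini-bulk it stood at 613 CPM per kilobase of median transcript length (548 to 666 in the 2 libraries). TCF7L2, which encodes the main TCF factor of the intestinal epithelium, followed at 342 CPM per kilobase (325 to 356). GSK3B stood at 69.8 CPM per kilobase, CTNNB1 at 51.4 and TCF7 at 47.4, and the ranges of CTNNB1 and TCF7 overlapped (50.5 to 52.6 and 40.6 to 55.7). APC at 25.3, AXIN2 at 25.0 and RNF43 at 18.8 CPM per kilobase overlapped one another, and AXIN1 was lowest of the detected genes at 3.98. The order of MYC before TCF7L2 held in the sums of all 4 groups, but the ranges overlapped in single cells, at 399 to 1376 and 139 to 679.5 CPM per kilobase untreated and 703 to 2055 and 173 to 857 DASHed. The order in the middle depends on the length used, since with the longest annotated transcript 5 of the 10 genes kept their place in untreated mini-bulk and 5 in DASHed mini-bulk.

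ASCL2 (GRCh38, chr11:2268495-2270952, minus strand), a transcription factor of intestinal stem cells and a Wnt target, had no count in any library. With the floor of 3 counts, this allows a summed level of up to 1.59 CPM in untreated mini-bulk, 2.63 in DASHed mini-bulk, 0.590 in untreated cells and 0.830 in DASHed cells. Across the table, 17.9% of the protein-coding genes had no count in any library.

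In mini-bulk, DASHed libraries had relatively less RNA of APC and CTNNB1 and relatively more of MYC and TCF7 than untreated libraries. Of the 9 genes that entered the test, 2 rose, 2 fell and 5 did not pass, by edgeR's quasi-likelihood test with Benjamini-Hochberg adjustment over all 10083 tested genes at 0.05. Across all tested genes 29.7% passed, 9.9% upwards and 19.8% downwards, so 4 of 9 is close to what that share gives for so few genes. Without untreated replicate 1, 2 of the 9 passed, both downwards. The groups did not overlap on the TMM-normalised scale for 5 genes that were higher and 3 that were lower in DASHed libraries, beside 31.5% and 36.8% of all tested genes. The median log2 fold change was 0.49 for the 9 genes and 0.03 for all tested genes. The labels name no separate cultures, so these p-values measure only the spread between libraries, which may be technical. A mini-bulk level does not tell how many cells hold a transcript from how much each cell holds.

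APC (GRCh38, chr5:112707498-112846239, plus strand), the scaffold that tumours of the colon most often lose, had the lowest levels of the 9 detected genes in DASHed mini-bulk. Its levels were 91.2 and 68.6 CPM without rRNA genes in the untreated libraries (78 and 71 counts) and 16.1 and 7.71 in the DASHed ones (10 and 4 counts), so every DASHed value lay far below every untreated one. It fell by 2.81 on the log2 scale (SE 0.46, adjusted p = 0.00317).

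CTNNB1 (chr3:41194741-41260096, plus strand) stood at 161 and 155 CPM in untreated mini-bulk and at 62.6 and 88.6 in DASHed mini-bulk. The groups did not overlap, and the untreated pair lay close together. The log2 fold change was −1.18 (SE 0.26, adjusted p = 0.0108). Without DASHed replicate 1 it was −0.81 with an adjusted p of 0.0638, and DESeq2 gave an adjusted p of 0.0781. Scaled to total counts alone, CTNNB1 reads as 0.85, when the median of all genes is itself at 2.04.

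GSK3B (chr3:119821323-120094417, minus strand), the kinase that phosphorylates beta-catenin within the destruction complex, had 97.1 and 128 CPM in untreated and 46.6 and 96.3 CPM in DASHed mini-bulk. The higher DASHed library came close to the lower untreated one, and the log2 fold change of −0.79 did not pass (SE 0.36, adjusted p = 0.128). It was −0.21 without DASHed replicate 1 (adjusted p = 0.677) and −1.28 without DASHed replicate 2, where it passed (adjusted p = 0.0286). AXIN1 (chr16:287440-352673, minus strand), the scaffold that limits assembly of the complex, rested on few counts, 14 and 11 untreated and 20 and 12 DASHed. Its levels were 16.4 and 10.6 CPM untreated and 32.1 and 23.1 CPM DASHed, and its log2 fold change of 0.93 did not pass (adjusted p = 0.231), and was 0.42 without untreated replicate 2. AXIN2 (chr17:65528563-65561647, minus strand), the scaffold that the pathway induces as its own feedback inhibitor, had 18.6 and 31.9 CPM untreated and 43.3 and 32.7 CPM DASHed. Its groups nearly met on this scale and overlapped on the TMM-normalised one, and its log2 fold change was 0.46 (adjusted p = 0.469), or 0.0008 without untreated replicate 1. AXIN2 shares 25.2% of its exonic bases with AC004805.1 on the same strand, so its counts are uncertain.

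TCF7L2 (chr10:112950250-113167678, plus strand) stood at 318 and 348.5 CPM in untreated and 436 and 578 CPM in DASHed mini-bulk. The groups did not overlap, but the log2 fold change of 0.49 did not pass (SE 0.19, adjusted p = 0.0804). It was 0.82 without DASHed replicate 1, where it passed (adjusted p = 0.00973), and 0.29 without untreated replicate 1 (adjusted p = 0.613). TCF7 (chr5:134114711-134151865, plus strand), which encodes TCF-1, a T-cell factor and itself a Wnt target in intestinal cells, had 43.6 and 31.7 CPM untreated and 81.5 and 86.1 CPM DASHed. Both DASHed values were well above the untreated pair. Its log2 fold change was 1.05 (SE 0.34, adjusted p = 0.0452). That call rested on every library but DASHed replicate 1, since the adjusted p was 0.0636 without DASHed replicate 2, 0.141 without untreated replicate 1 and 0.49 without untreated replicate 2. DESeq2 gave 0.107.

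MYC rose from 749 and 909.5 CPM in untreated mini-bulk to 1589 and 1911 CPM in DASHed mini-bulk. It has the deepest counts of the 10 genes, 640 to 992 per mini-bulk library, and its groups lay far apart. Its log2 fold change was 0.96 (SE 0.17, adjusted p = 0.00409). Without untreated replicate 1 the value was 0.69 and the adjusted p 0.0718. RNF43 (chr17:58352500-58417595, minus strand), the ubiquitin ligase that removes Frizzled from the cell surface and is itself induced by the pathway, had 45 and 68.6 CPM untreated and 76.7 and 107.9 CPM DASHed. Its groups lay side by side without overlap, with a log2 fold change of 0.58 that did not pass (SE 0.35, adjusted p = 0.225), and was 0.17 without untreated replicate 1. RNF43 shares 59.5% of its exonic bases with AC004687.2 on the same strand and 20.3% with genes on the other strand, so its counts are uncertain too.

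The fold changes followed the base composition of the transcripts. APC has the lowest median GC content of the 10 genes at 41.7%, followed by GSK3B at 45.4% and CTNNB1 at 46.8%, and these are the 3 genes with negative fold changes. TCF7L2 at 52.0%, RNF43 at 55.8%, AXIN2 at 56.5%, MYC at 58.7%, TCF7 at 58.9% and AXIN1 at 63.2% all had positive ones. Across the 9 genes, which share libraries and are not replicates, GC content and log2 fold change correlated with Pearson's r = 0.918 and Spearman's rho = 0.883, given as a description.

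With each library's dependence on transcript GC content fitted and removed, none of the 9 genes passed edgeR's test, and 3.78% of all genes passed. APC and TCF7L2, 1 in each direction, had an unadjusted p below 0.05. The log2 fold change of APC became −1.30 (adjusted p = 0.177), that of CTNNB1 −0.38 (adjusted p = 0.581), that of TCF7 0.41 (adjusted p = 0.649) and that of MYC 0.32 (adjusted p = 0.361). GSK3B turned to 0.27 and AXIN2 to −0.043, both far from the threshold. TCF7L2 kept nearly its value, at 0.47 (adjusted p = 0.278). The median of the 9 genes was 0.18 after the correction. What sets the relation with GC content was not tested.

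**Figure D2:**
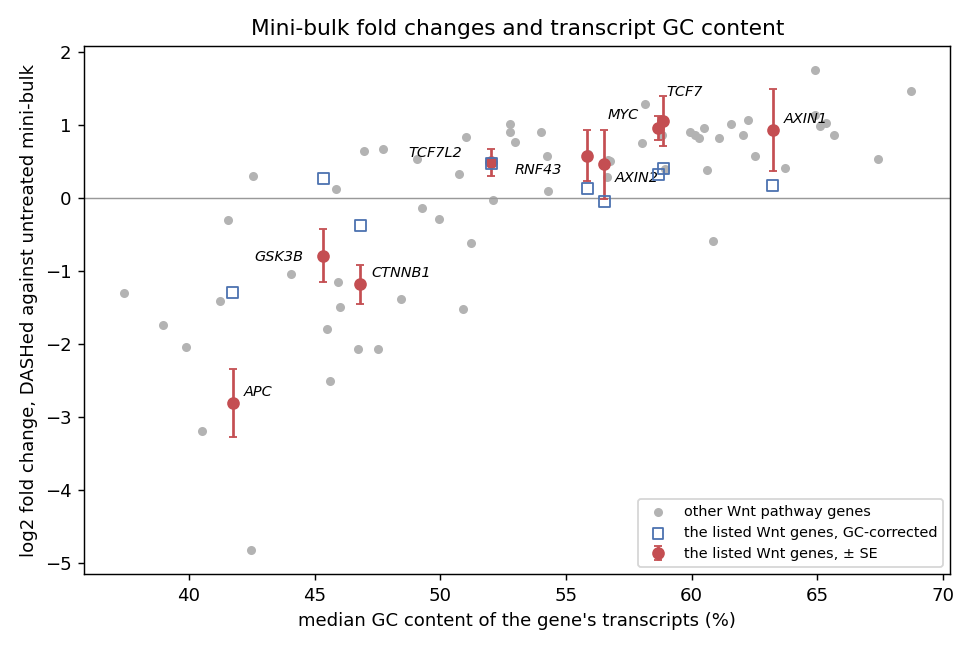
Log2 fold change in mini-bulk (DASHed against untreated, edgeR with TMM factors) against the median GC content of the gene's transcripts in percent. Filled red points are the 9 detected genes with bars of ± 1 SE, open squares the same genes after correction for GC content, and grey points 61 other tested Wnt pathway genes. APC lies lowest at −2.81 and 41.7% GC, and its square at −1.30. With total counts alone the median of all genes is 2.04 and CTNNB1 and GSK3B read as 0.85 and 1.23.

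The 250 bases before annotated starts were searched on both strands for the 7-base core of sites that TCF factors bind (RefSeq, GRCh38.p14). That core is spelled as CTTTG with A or T at each of the last 2 positions. RefSeq windows matched 7 of the 10 genes, with 12 starts between them. AXIN2, ASCL2 and MYC had no window and were not searched. A match was held by 2 of the 12 windows. Of all 35116 windows, 11.96% held one. The matches, in capitals below, were AACAAAG, which is CTTTGTT read on the other strand, 50 bases before the second start of TCF7, and CTTTGTT 133 bases before the second start of TCF7L2. These are matches of letters, and no binding was measured. The TCF7 window is chr5:134123368-134123617 with 62.0% GC and the TCF7L2 window chr10:113126383-113126632 with 42.4% GC, both on the plus strand, beside a median of 58.0% over all windows.
TCF7: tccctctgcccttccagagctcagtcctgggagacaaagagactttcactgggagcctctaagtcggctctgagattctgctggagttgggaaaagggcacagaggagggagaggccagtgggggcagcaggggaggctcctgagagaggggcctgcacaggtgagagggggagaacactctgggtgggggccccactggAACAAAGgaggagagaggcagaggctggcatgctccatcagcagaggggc
TCF7L2: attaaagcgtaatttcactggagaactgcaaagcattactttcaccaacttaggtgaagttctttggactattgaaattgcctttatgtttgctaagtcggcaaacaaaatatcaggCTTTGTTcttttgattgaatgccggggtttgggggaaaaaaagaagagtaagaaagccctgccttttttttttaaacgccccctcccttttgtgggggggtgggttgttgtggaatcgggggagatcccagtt

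Around these 10 genes, 112 other Wnt pathway genes were followed in lists by role, and 94 had a count in some library. Of the 61 tested in mini-bulk, 10 rose and 10 fell, and the median log2 fold change was 0.51. The share that passed in these 61 genes is close to the 29.7% of all tested genes, and counts in the lists below stand beside 9.9% upwards and 19.8% downwards. That count of 20 was 8 without untreated replicate 1 and 11 without untreated replicate 2. Of 19 ligand genes 13 had counts, 4 were tested and none passed, also at an unadjusted p of 0.05 and with DESeq2. WNT7B, the most abundant of them, had 27.5 ± 17.0 CPM untreated and 58.1 ± 38.1 CPM DASHed (SD, n = 2 each; log2 fold change 0.99, adjusted p = 0.221 by edgeR's quasi-likelihood test). The value was 0.21 without DASHed replicate 1, 0.22 without untreated replicate 2 and 1.65 without DASHed replicate 2, where it passed (adjusted p = 0.0295). WNT10B, the other ligand named by the rule, had 11.7 ± 8.31 and 25.2 ± 2.94 CPM (adjusted p = 0.258). WLS, the carrier that brings Wnt proteins to the cell surface, and PORCN, the acyltransferase that lipidates them, did not pass either, with log2 fold changes of −1.38 and 0.87 (adjusted p = 0.105 and 0.303). WLS reads as 0.64 with total counts alone, when the median of all genes is 2.04.

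At the membrane, 2 of 9 tested receptor genes fell and none rose, while 2 that were higher had an unadjusted p below 0.05 in edgeR and none passed upwards with DESeq2. LRP6, the co-receptor of Frizzled, went from 69.4 ± 9.38 to 17.8 ± 4.77 CPM (log2 fold change −2.08, adjusted p = 0.00731), and RYK, a kinase-like Wnt receptor, from 30.7 ± 7.06 to 8.03 ± 2.27 CPM (log2 fold change −2.05, adjusted p = 0.0316). RYK did not pass with DESeq2 (adjusted p = 0.186) or without DASHed replicate 1 or 2 (adjusted p = 0.0978 and 0.0501), and with the GC correction LRP6 was at −1.26 and RYK at −0.36, neither past the threshold. ZNRF3, the close relative of RNF43, was the 1 tested gene of the R-spondin module and did not pass (log2 fold change 0.38, adjusted p = 0.528), and its sign turned to −0.33 with the GC correction and −0.10 without untreated replicate 1. LGR4, an R-spondin receptor, was too low to test, with 23 counts summed over untreated cells and 5 over DASHed cells. None of 3 tested antagonists passed in edgeR, where 1 had an unadjusted p below 0.05, or with DESeq2. DKK1, a secreted inhibitor of LRP6, had 98.3 ± 19.1 CPM untreated and 132 ± 45.4 CPM DASHed (log2 fold change 0.30, adjusted p = 0.476, and −0.026 without untreated replicate 1). With the GC correction, DKK1, whose transcripts hold 42.5% GC, reached 1.76 and passed (adjusted p = 0.0187). KREMEN1, a receptor of Dickkopf proteins, had a log2 fold change of 0.61 (adjusted p = 0.181).

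Inside the cell, 6 of 17 tested cytoplasmic regulators rose and 5 fell, beside 9.9% and 19.8% of all tested genes. The 6 that rose were CSNK1D, CSNK1E and CSNK1G2 of the CK1 family, GSK3A, the Dishevelled gene DVL2 and the phosphatase scaffold PPP2R1A, and their log2 fold changes were 0.76 to 1.02. Those that fell were TNKS2, USP34 and BTRC, named by the rule, and CSNK1G1 and FBXW11, which like the 6 were named after their values were seen. CSNK1D, CSNK1E, GSK3A and CSNK1G1 share 11.6 to 21.1% of their exonic bases with other genes and are uncertain. TNKS2, a tankyrase that marks AXIN for destruction, had 52 counts over the untreated and 1 over the DASHed mini-bulk libraries, a ratio of levels of 0.0318 (95% interval 0.000791 to 0.185). USP34, a deubiquitinase of AXIN, fell from 267 ± 25.5 to 31.3 ± 2.11 CPM (log2 fold change −3.19, adjusted p = 8.63e-05) and is uncertain, since 18% of its exonic bases lie opposite AHSA2P. BTRC, the ubiquitin ligase subunit that recognises phosphorylated beta-catenin, had a log2 fold change of −1.79 (adjusted p = 0.0187), and one of 0.16 with total counts alone, when the median of all genes is 2.04. It did not pass without untreated replicate 2 (−1.20, adjusted p = 0.141).

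Among 14 tested nuclear co-factors 3 rose and 1 fell. BCL9L and BCL9, which bind beta-catenin and help it activate transcription, rose by 1.14 and 0.77 on the log2 scale. CTBP1, a co-repressor, rose by 0.86. BCL9 was named after its values were seen, passed narrowly (adjusted p = 0.0443 by edgeR) and did not pass with DESeq2. BCL9L and CTBP1 are uncertain, with 38.8% and 13.3% of their exonic bases opposite other genes, and CTBP1 did not pass without untreated replicate 1 or 2 (adjusted p = 0.172 and 0.168). TBL1XR1, a co-factor recruited with beta-catenin, had a log2 fold change of −2.51 (adjusted p = 0.0027 by edgeR). Of 11 tested target genes other than MYC and AXIN2, 1 rose and 2 fell. BMP4, a secreted growth factor, rose from 113 ± 22.2 to 230.5 ± 30.9 CPM, a call lost without untreated replicate 1 or 2 (adjusted p = 0.301 and 0.0743). CD44, an adhesion receptor, fell from 1522 ± 79.9 to 391 ± 54.1 CPM (log2 fold change −2.08, adjusted p = 8.8e-05 by edgeR). SLC12A2, an ion cotransporter, had 54.3 ± 5.37 and 17.5 ± 0.223 CPM (adjusted p = 0.0164 by edgeR), and its log2 fold change of −1.74 became 0.043 with the GC correction and 0.28 with total counts alone. Without untreated replicate 1 its adjusted p was 0.0723. With the GC correction 5 of these 61 genes passed, beside 3.78% of all genes. They were CD44 and USP34 downwards and DKK1, CREBBP and EP300 upwards. CREBBP and EP300, histone acetyltransferases, were named after their values were seen. Without the correction they were at 0.54 and 0.13, and neither passed in edgeR (adjusted p = 0.0519 and 0.639).

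In single cells each group counts as 1 sample, so the following are values with counting error only. The ratio of DASHed to untreated levels, from counts summed over 4 cells as CPM without rRNA genes, was 0.174 for APC (exact 95% interval 0.136 to 0.220). It was 0.661 for CTNNB1 (0.600 to 0.7285) and 0.632 for GSK3B (0.532 to 0.748). TCF7L2 had a ratio of 1.33 (1.245 to 1.42) and MYC one of 1.72 (1.66 to 1.78). For AXIN1 it was 1.92 (1.07 to 3.49), for AXIN2 1.51 (1.27 to 1.79) and for TCF7 0.735 (0.540 to 0.993). These ratios are not set against the median gene. Relative to that gene, as given below, CTNNB1 lay at −0.16, GSK3B at −0.25 and TCF7 at −0.14 on the log2 scale, and APC at −2.03. RNF43, with 3 untreated counts and 1 DASHed count, had a ratio of 0.469 with an interval of 0.00893 to 5.84 and cannot be placed.

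Untreated cells 1 to 4 held 111, 205, 48.1 and 122 CPM of APC, and DASHed cells 1 to 4 held 28.2, 41.98, 7.47 and 17.8 CPM. All 4 DASHed values were below all 4 untreated ones. CTNNB1 stood at 239, 156, 269 and 385 CPM in the untreated cells and at 176, 54.6, 202 and 213 in the DASHed ones, lower in each same-numbered pair although the groups overlap. GSK3B had 148, 74.4, 59.9 and 79.6 CPM untreated and 57.6, 57.4, 49.5 and 58.2 CPM DASHed, again lower in each pair. MYC had 979, 544, 1878 and 785 CPM untreated and 1756, 960, 2805 and 1248 CPM DASHed, higher in each pair. TCF7L2 had 375, 284, 665.5 and 136 CPM untreated and 462, 414, 839.5 and 170 CPM DASHed, also higher in each pair. Both groups of MYC and of TCF7L2 overlap, since the cells differ from one another by more than the libraries of a pair.

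Set against the median of 13469 genes with at least 20 counts over the 8 libraries, which was 2.20-fold higher in DASHed libraries on the scale of all counts, MYC lay 1.22 above on the log2 scale, AXIN2 0.95, TCF7L2 0.84 and AXIN1 0.59. TCF7 lay at −0.14, CTNNB1 at −0.16, GSK3B at −0.25 and APC at −2.03. Of these 8 genes, 1 lay at least 2-fold above the median gene and 1 at least 2-fold below, beside 12.6% and 23.7% of all genes. Other settings brought MYC close to that 2-fold limit, at 1.01 with a pseudocount of 0.1 CPM and 0.99 without DASHed cell 3. When each library was left out, MYC ranged from 0.99 to 1.67. TCF7L2 lay at 0.63 with that pseudocount and ranged from 0.48 to 1.35. Within same-numbered pairs, each set against its own median, MYC and TCF7L2 were above in all 4 pairs, APC, CTNNB1 and GSK3B below in all 4, and AXIN2 and TCF7 above in 2 of 4. AXIN1 was above in both pairs that held a count of it, and the other pairs give no ratio. The share of all genes that keep 1 direction over the 4 pairs was not counted, so these counts are a description. The mean over all pairs put MYC at 0.89, under 2-fold, and TCF7L2 at 0.53. It put AXIN2 at 0.05 and the median of the 8 genes at −0.51 in place of 0.23. The median of a pair is that of genes with at least 20 counts in the pair, so the baseline changes along with the genes. With pairs without a count left out, an alternative added after the data were seen, AXIN1 lay at 0.48 and the median at −0.21.

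**Figure D3:**
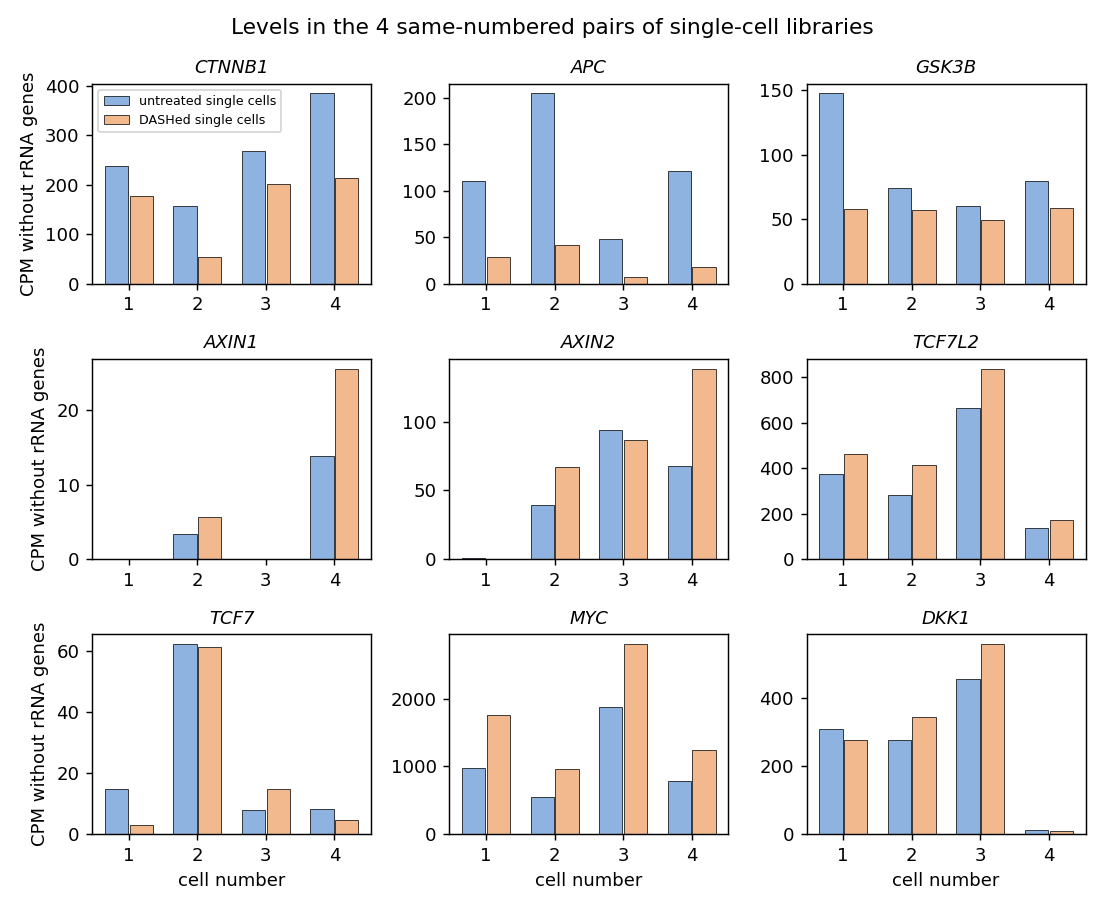
Level of 8 Wnt pathway genes and of DKK1 in each single-cell library, as CPM without rRNA genes on linear axes that start at 0, with the untreated and DASHed library of the same number side by side. Each bar is 1 library, without error bars. APC, CTNNB1 and GSK3B are lower and MYC and TCF7L2 higher in the DASHed library of each of the 4 pairs, and cell 3 is highest for MYC and TCF7L2 in both kinds of library.

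The cells differed among themselves in similar ways in both kinds of library. Of the 8 genes, 6 were highest in the same-numbered cell in untreated and DASHed libraries, and 3 (CTNNB1, TCF7L2 and MYC) kept the order of all 4 cells. The share of all genes with such agreement was not counted. Over 7338 genes, the deviations of same-numbered libraries correlated at 0.926 to 0.934. Of the 7 genes without tied cells, 6 were lowest in the same one, while AXIN1 was tied at 0 in cells 1 and 3 of both kinds. MYC was highest in cell 3 and lowest in cell 2, 3.45-fold apart untreated and 2.92-fold apart DASHed. TCF7L2 was highest in cell 3 and lowest in cell 4, 4.88-fold and 4.95-fold apart. CTNNB1 was highest in cell 4 and lowest in cell 2, 2.47-fold and 3.90-fold apart. Its lowest cell was the highest for APC, at 205 CPM untreated, and for TCF7.

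AXIN2 was almost absent from cell 1, with 1 untreated count and none DASHed, and present in the others, with 59, 119 and 84 counts untreated and 48, 93 and 141 DASHed. AXIN1 had no count in cells 1 and 3 of either kind, 5 and 4 counts in cell 2 and 17 and 26 in cell 4. TCF7 came mostly from cell 2, with 94 of 130 untreated and 44 of 68 DASHed counts. DKK1 showed a like contrast, with 333, 413 and 578 untreated counts in cells 1 to 3 and 14 in cell 4, and 224, 246, 597 and 9 in the DASHed libraries. The libraries of a number may come from the same cell and amplification, so agreement between them is not a second observation.

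Among genes with at least 20 mini-bulk counts, levels in summed cells lay within 2-fold of mini-bulk for 7 of 9 in untreated libraries. In DASHed libraries this held for 3 of 8. These counts are not of the same genes, since APC, with 14 DASHed mini-bulk counts, was left out there. AXIN2 lay at the 2-fold limit in both. The share of all genes within 2-fold was not counted. The ratio of cells to mini-bulk was 1.23 for MYC, 1.08 for TCF7L2, 0.767 for GSK3B, 1.63 for CTNNB1 and 1.60 for APC in untreated libraries. In DASHed libraries it was 1.02 for MYC, 0.963 for TCF7L2, 0.80 for GSK3B and 2.29 for CTNNB1. AXIN2 was higher in cells in both, at 1.997 and 2.03. AXIN1 was lower in both, at 0.327 (exact 95% interval 0.176 to 0.605) and 0.296 (0.174 to 0.503). TCF7 was at 0.691 (0.513 to 0.938) untreated and 0.224 (0.162 to 0.3085) DASHed.

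RNF43 stood apart. It had 109 counts in untreated mini-bulk and 3 in untreated cells, where the mini-bulk level would give 293 counts, and the ratio was 0.0102 (exact 95% interval 0.00208 to 0.0307). DASHed mini-bulk had 104 counts and DASHed cells 1, where the mini-bulk level would give 329.2, and the ratio was 0.00304 (7.62e-05 to 0.0173). All 4 counts came from cell 4. Of all genes with at least 20 mini-bulk counts, 1.04% had as low a ratio in untreated and 1.21% in DASHed libraries. AC004687.2, with which RNF43 shares exons, had 36 and 0 counts in untreated and 8 and 0 in DASHed mini-bulk, and 17 untreated and 2 DASHed counts in cell 4. At least 4-fold lower in cells were 1 of 9 genes untreated and 2 of 8 DASHed, beside 9.15% and 9.33% of all genes, and none was as much higher, beside 1.29% and 0.834%. With 4 cells per group, the level of RNF43 among other cells of the line was not measured.

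**Figure D4:**
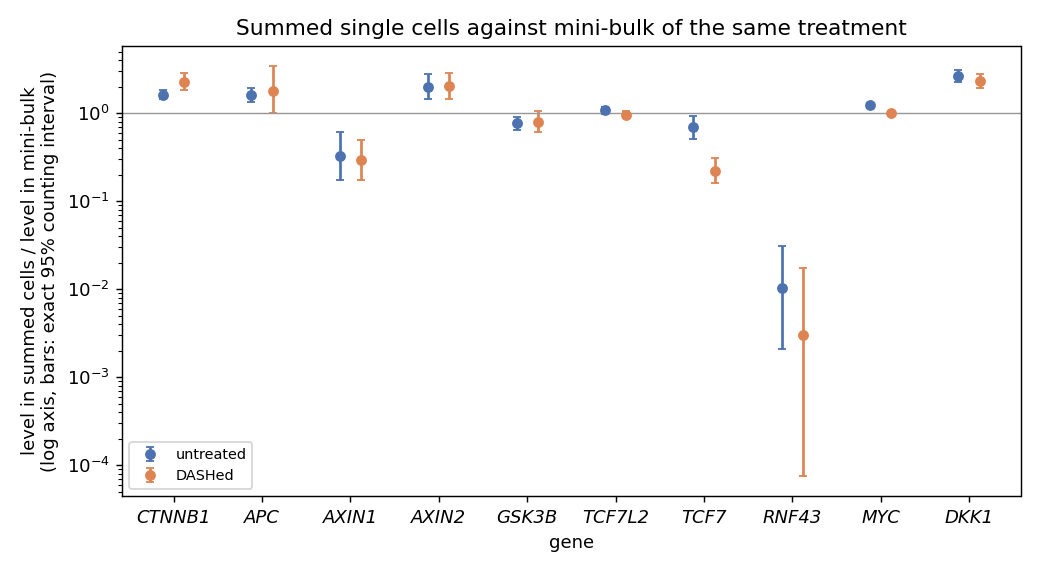
Ratio of the level in 4 summed single cells to the level in 2 summed mini-bulk libraries of the same treatment, on a log axis, with exact 95% counting intervals, for 9 Wnt pathway genes and DKK1. The line marks equal levels. RNF43 lies lowest at 0.0102 untreated and 0.00304 DASHed, and MYC and TCF7L2 lie between 0.963 and 1.23.

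Over the 12 libraries, the 5 genes whose level was most like that of CTNNB1, among 7129 genes with a mean of at least 20 counts, were UBA6-AS1, TUBGCP4, MTRR, RSL1D1 and EFCAB14. Their Pearson correlations with CTNNB1 on the log2(CPM + 1) scale were 0.981, 0.972, 0.951, 0.925 and 0.922, and their transcripts hold 42.2 to 46.5% GC. UBA6-AS1 is an antisense gene and uncertain, as the handling of strand is not given. Of the Wnt genes themselves, APC correlated with CTNNB1 at 0.368 and GSK3B at 0.242. TCF7 stood at −0.746, TCF7L2 at −0.331, AXIN2 at −0.0754 and MYC at −0.0805. These values describe 12 libraries that share cells and differ in rRNA share, and carry no test.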

How the data were processed

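Total RNA of 12 HCT116 libraries was analysed from 1 deposited table of estimated counts per gene, for which the submitters' processing notes name kallisto 0.46.2 as the authors' tool. Build, annotation, strand handling and gene summing: not given in the sources used here. Replicate numbers, groups and protocols are per the labels. kallisto divides reads between sequences that could both have produced them, so a gene is called uncertain where other genes cover at least 10% of its exonic bases. Names matched GENCODE v29 (GRCh38) for 57130 of 57134 genes after names damaged by a spreadsheet were restored, and GENCODE supplied coordinates, lengths and GC content.

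Counts were rounded and mini-bulk groups compared in edgeR 4.0.16 (under R 4.3.3) by its quasi-likelihood test. Library sizes were scaled by TMM, low genes were dropped by filterByExpr, and p-values were adjusted by Benjamini-Hochberg with a threshold of 0.05. The procedure was tested on simulated data. Those counts had 1 common dispersion and no dependence on GC content, so the simulation does not cover the GC relation seen here. TMM factors were 1.96 and 2.09 in DASHed and 0.442 and 0.553 in untreated libraries. Alternatives were other size factors, DESeq2 1.42.0, no filter, removal of rRNA genes, a replicate block, leaving out each library, and offsets fitted to GC content per library by a spline with 5 degrees of freedom. Single cells carry no test. Their log2 ratios use CPM of all counts with a pseudocount of 1 CPM, and intervals are exact at 95%, covering counting error only, since reads are not molecules. A floor of 3 counts stands for 0.

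The Wnt genes and lists were chosen with earlier results of these data known. The rule named from each list up to 3 genes of largest fold change past the threshold with groups that did not overlap, or otherwise the 2 of highest expression, and the 5 genes most correlated with CTNNB1. Same-numbered single cells were taken as pairs because all 4 correlations of their deviations from group means were 0.926 to 0.934, which comes from the data and not from the labels. Coding stretches are not reported here.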

Additional observations from a re-analysis of the deposited data

Results flagged for a closer look

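Of 18 groups of 4 single cells, 1 for each treatment and each of 8 Wnt genes and DKK1, 2 held a cell that stood apart by Dixon's criterion at its 95% level, and chance gives about 1 in 20. GSK3B was lowest in DASHed cell 3, at 49.5 CPM without rRNA genes, while the other DASHed cells lay between 57.4 and 58.2 CPM, so the gap is small in size. TCF7 was highest in untreated cell 2, at 62.5 CPM, beside 7.89 to 14.9 CPM in the other untreated cells. The DASHed library of cell 2 was also the highest for TCF7, at 61.6 CPM.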

How the results depend on the processing

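For all genes, the count past the threshold in mini-bulk (2997) was 1790 with DESeq2, 381 with the GC correction, 5403 with a replicate block, 1741 with the block and GC correction together, 6856 with total counts alone (6718 up, 138 down, against 998 up and 1999 down), and 1417 to 3450 when each library was left out. For the 9 tested Wnt genes (4 past the threshold) it was 2 with DESeq2, 0 with the GC correction, 3 with the block and GC correction together (APC, TCF7L2 and MYC), 7 with the block, 8 with total counts alone, all upwards, and 2 to 4 when each library was left out. For the other Wnt genes (20) it was 5 with the GC correction, 15 with the block and GC correction together, 36 with the block, 46 with total counts alone (44 up, 2 down), and 8 to 30 when each library was left out. At 0 calls with the GC correction, edgeR gave no adjusted p below 0.177 for these 9 genes. Other size factors, no filter and removal of rRNA genes kept these 3 counts within 1.5 times. The sign turned with the GC correction for 2 of the 9 Wnt genes and 15 of the other 61. Among the genes named by the rule these were AXIN2 (−0.043; −0.019 with the block), GSK3B (0.27; 0.25), ZNRF3 (−0.33; −0.30) and SLC12A2 (0.043; 0.035). Signs turned with total counts alone for CTNNB1 (0.85), GSK3B (1.23), WLS (0.64), BTRC (0.16) and SLC12A2 (0.28), and without untreated replicate 1 for ZNRF3 (−0.10) and DKK1 (−0.026, and up to 0.76 without another library). The replicate numbers of mini-bulk libraries are not shown to pair them: same-numbered libraries correlated at 0.49, but with 2 pairs that decides nothing. Under the block GSK3B (adjusted p = 0.00154), TCF7L2 (4.17e-05) and RNF43 (0.0403) passed in edgeR, which they did not without it. RYK and TNKS2 did not pass the expression filter without an untreated library and have no value there.

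The single-cell median of 8 genes (0.23) was −0.51 as a mean over same-numbered pairs, the replicate block of the cells. It was −0.21 in that mean with pairs without a count left out. In both means each pair has its own baseline. The median of 8 genes was 1.36 on CPM of all counts without subtracting the median gene and 1.09 against all genes with a count. It was 0.11 to 0.66 when each library was left out. On CPM of all counts, median levels were 44.3 in place of 73.5 in DASHed mini-bulk, 15.5 in place of 96.3 in untreated mini-bulk and 23.9 in place of 105.9 in untreated cells. Depth limits AXIN1, with 25 and 32 summed mini-bulk counts, and APC in DASHed mini-bulk, with 14.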
